A study of Mus musculus with 16 samples.

Results

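Transcript levels of 7 genes that carry glucose into the cell and through glycolysis were described in ventricles of mouse embryos at E11.5: Slc2a4, Hk1, Pfkl, Pfkfb2, Aldoc, Eno3 and Pdk2. They were chosen by gene symbol, as rows of the deposited expression table, and were 7 of the 5921 rows held. All 7 had a mean above 1 TPM (a relative transcript abundance that corrects for transcript length and library size) and were among the 2620 genes tested. The study removed Atf4, a transcription factor of the integrated stress response, from cardiomyocytes with Xmlc2-Cre and compared each conditional knockout (cKO) with controls by RNA-seq of dissected ventricle.

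There were 4 groups of 4 libraries, each library from a separate embryo per the series' design text. In the exon 2-3 line both of those exons of Atf4 were flanked by loxP sites, and its control and cKO libraries carry the batch label 1. In the exon 2 line exon 2 alone was flanked, and its control and cKO libraries carry the batch label 2, which leaves line and batch impossible to separate: their effects cannot be told apart. No group received a drug or other treatment. The genotype label gives the C57BL/6 background as wild type for cKO and control alike, and the sources used here do not say whether controls carried the floxed allele or Cre. Cre acts in cardiomyocytes only, so other cells of the ventricle keep Atf4. In bulk tissue, fewer cells of a type and less RNA per cell cannot be told apart. Atf4 itself was not analysed here, so directions rest on the group labels.

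Glucose enters heart muscle through facilitative transporters and is trapped by hexokinase as glucose 6-phosphate. Phosphofructokinase commits it to glycolysis, and aldolase and enolase act further down. Pyruvate dehydrogenase, inside mitochondria, passes the end product pyruvate on to oxidation. The embryonic heart is known for its reliance on glycolysis before fatty acid oxidation takes over around birth.

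On GRCm38.p6, whose RefSeq gene positions equalled those in the files for all 7, the genes lie on chromosomes 1, 10 and 11. Slc2a4 spans chr11:69942286-69948216 on the minus strand, Hk1 spans chr10:62268855-62379920 on the minus strand, and Pfkl spans chr10:77986947-78009807 on the minus strand. Pfkfb2 spans chr1:130689043-130729253 on the minus strand, Aldoc chr11:78323073-78327781 on the plus strand, Eno3 chr11:70653125-70662513 on the plus strand, and Pdk2 chr11:95026258-95041371 on the minus strand. Each value is for the whole gene. Hk1, Pfkfb2, Eno3 and Pdk2 overlap genes on the opposite strand, and the sources used here do not say if reads were assigned by strand. The shared exonic bases in GENCODE M21 were 157 of 8532 for Hk1 with Hk1os and 154 of 7254 for Pfkfb2 with Yod1. Eno3 shared 0 exonic bases with Pfn1, and Pdk2 shared 0 with Gm11513.

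Promoter windows of 250 bases before RefSeq start sites were read for 6 of the 7 genes, 1 to 3 start sites per gene and 11 windows in all. Every window of Pfkfb2 and Eno3 lay inside the gene's span given above, so the bases before the outer end of these genes were not searched. In 1 window of Hk1, 186 of the 250 bases were exonic in GENCODE. The windows of Aldoc held 105 and 136 exonic bases, and that of Pfkl held 53. The E-box CACGTG, searched on both strands, was in 2 of the 11 windows, of the 2 members Pdk2 and Pfkfb2. It was in 6.02% of all 32851 windows of that length. The shorter ACGTG, which lies within CACGTG, was in 3 windows of the same 2 members and in 16.6% of all windows. The GC box GGGCGG was in 2 of the 11 windows, of Aldoc and Pfkfb2, and in 32.7% of all windows. TGATGNAA, the core of the element that C/EBP-ATF dimers bind, was in 0 of the 11 windows and in 3.45% of all. The cAMP response element TGACGTCA was likewise in 0 of the 11, against 1.55%. A match or its absence concerns only the letters in these windows. The windows of Pdk2 and Pfkfb2 with CACGTG are shown because Pdk2 had the largest differences of the 7 genes in the exon 2-3 line and between the control groups and Pfkfb2 was the other member with the motif. They are written 5′ to 3′ on the minus strand, Pdk2 at chr11:95041372-95041621 and Pfkfb2 at chr1:130715822-130716071, and capitals mark CACGTG and, in Pfkfb2, GGGCGG on either strand.
Pdk2: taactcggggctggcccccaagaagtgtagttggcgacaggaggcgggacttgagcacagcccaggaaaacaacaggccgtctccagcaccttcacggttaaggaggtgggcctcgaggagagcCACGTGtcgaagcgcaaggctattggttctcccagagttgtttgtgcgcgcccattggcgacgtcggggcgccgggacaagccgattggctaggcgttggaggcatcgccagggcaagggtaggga
Pfkfb2: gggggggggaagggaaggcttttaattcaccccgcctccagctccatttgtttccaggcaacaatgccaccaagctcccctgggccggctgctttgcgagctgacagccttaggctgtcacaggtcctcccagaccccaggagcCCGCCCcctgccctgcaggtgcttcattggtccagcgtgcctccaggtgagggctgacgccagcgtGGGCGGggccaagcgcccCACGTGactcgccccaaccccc
CACGTG starts 126 bases before start site 2 of 2 of Pdk2 and 22 bases before start site 2 of 3 of Pfkfb2.

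In control ventricle the 7 genes fell into a high, a middle and a low group. In exon 2-3 controls Eno3 averaged 255 ± 15.5 TPM (SD, n = 4), Hk1 216 ± 18.2 and Pfkl 178 ± 16.4. Pdk2 averaged 27.9 ± 4.65 TPM and Slc2a4 18.0 ± 1.33 TPM, both above the median tested gene at 14.5 TPM. Pfkfb2 at 8.05 ± 0.809 TPM and Aldoc at 7.42 ± 0.640 TPM were lowest, and the libraries of this neighbouring pair overlapped. Hk1 and Pfkl overlapped too, while every other pair of neighbours was separated in all libraries. Pfkl exceeded Pdk2, the next gene down, by a factor of 6.36.

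In exon 2 controls the order was the same except at the top, where Hk1 averaged 282 ± 19.3 TPM (SD, n = 4) and stood above Eno3 at 234 ± 16.5 TPM in every library. Pfkl averaged 183 ± 10.9 TPM, Pdk2 43.2 ± 4.66, Slc2a4 22.1 ± 1.24, Pfkfb2 7.91 ± 1.49 and Aldoc 7.66 ± 0.739. The libraries of Pfkfb2 and Aldoc again overlapped. Eno3, Hk1 and Pfkl lay above at least 94.6% of the tested genes in either control group, and Pfkfb2 and Aldoc above 34.0% at most. The 3 abundant genes encode a hexokinase, the liver-type phosphofructokinase subunit and the muscle enolase.

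**Figure D1:**
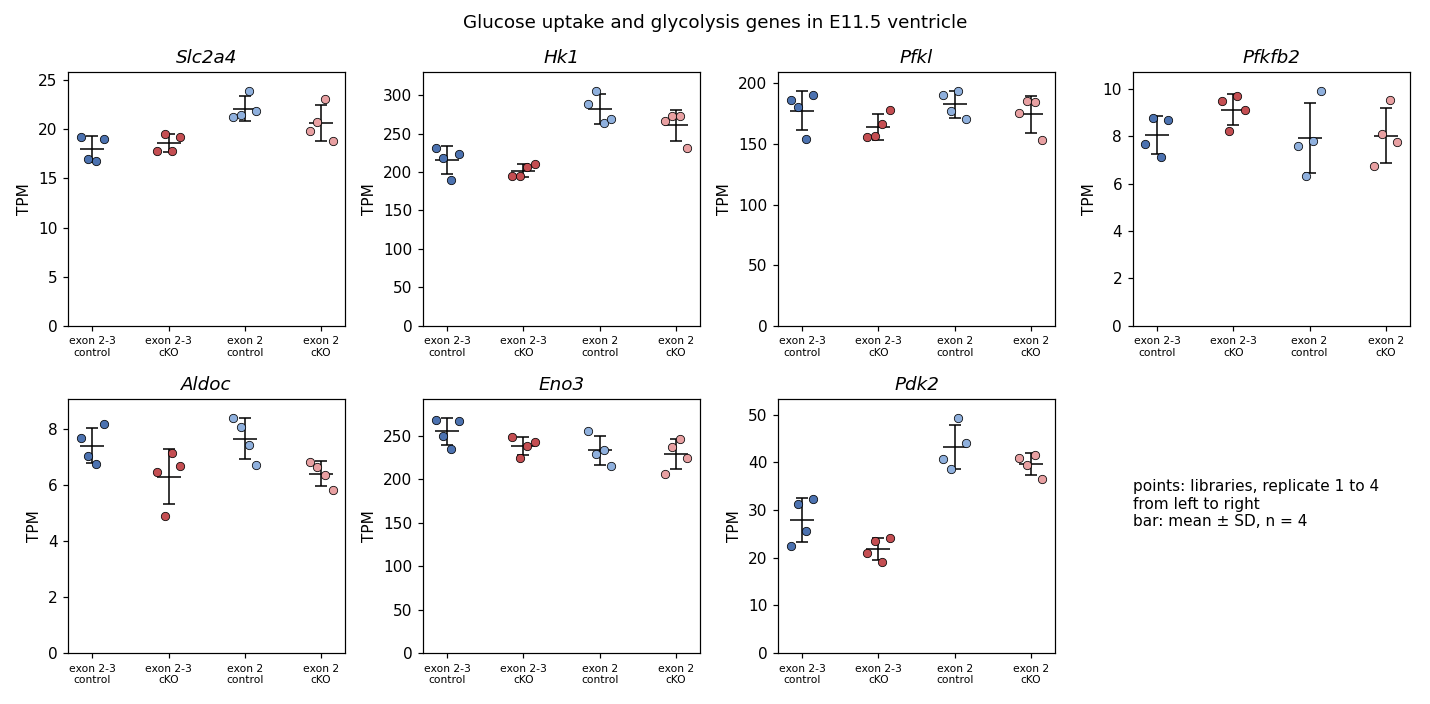
Level of each gene in TPM (vertical axis, starting at 0) in the 16 libraries, by group (horizontal axis). Points are libraries, bars are the mean ± SD of 4. Within each line the cKO points overlap the control points for all 7 genes, while the exon 2-3 controls of Pdk2 (22.5 to 32.2 TPM) lie below the exon 2 controls (38.7 to 49.3 TPM).

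The question within each line was whether loss of Atf4 in cardiomyocytes altered these transcripts. On the values as deposited none of the 7 passed the test in either line, while median centring of the libraries called Hk1, Pfkl and Pdk2 lower in exon 2-3 cKO libraries. As deposited, 0 of 7 members in that line passed an adjusted p of 0.05 (limma on log2(TPM + 1), Benjamini-Hochberg adjustment over all 2620 genes), where 6.72% of all genes tested did. Of the same 7, 0 passed in the exon 2 line, where 0.0763% of all genes did, which is 2 genes. At an unadjusted p under 0.05, limma gave 1 member (Pdk2) and 552 genes, 21.1% of all, in the exon 2-3 line. It gave 1 member (Aldoc) and 84 genes, 3.21% of all, in the exon 2 line. No member had cKO and control libraries that did not overlap, which held for 14.5% of the genes in the exon 2-3 line and 1.83% in the exon 2 line.

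The estimates were small. Of 7 log2 differences 5 were below 0 in the exon 2-3 line, as were 41.5% of all genes, with a median of -0.10 against 0.03 over all genes. For the exon 2 line 6 of 7 were below 0, as were 56.8% of all genes, with a median of -0.10 against -0.01 over all genes. In the exon 2-3 line the 95% intervals of 6 of the 7 members lay inside a 1.41-fold change of TPM + 1 in either direction. In the exon 2 line those of all 7 did. Changes of low genes such as Aldoc and Pfkfb2 are shrunk on this scale, so their fold change in TPM can be larger. The depth of each library is unknown from TPM, so precision rests on the spread between embryos.

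**Figure D2:**
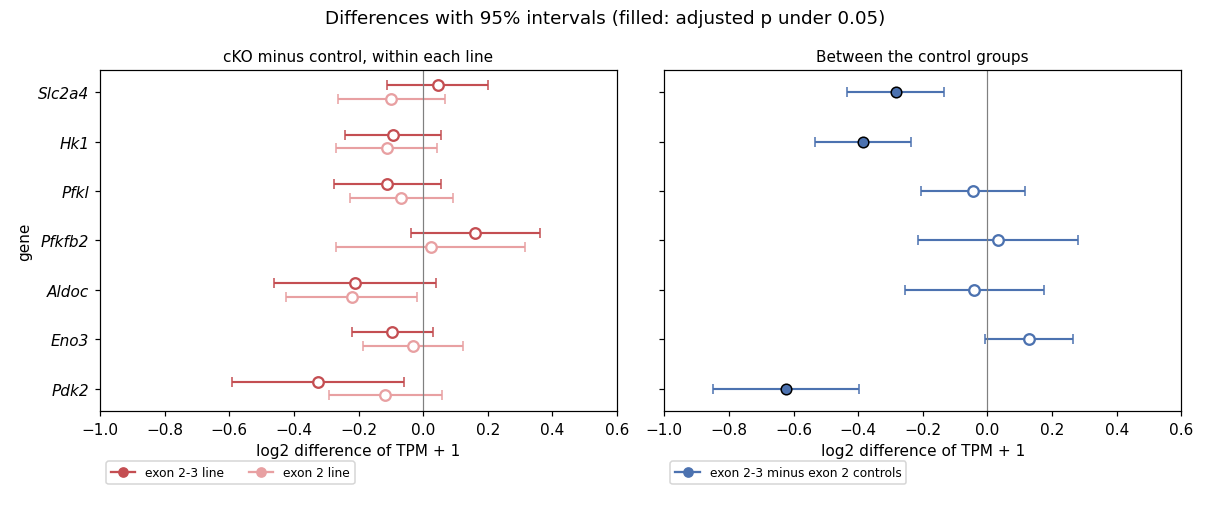
Log2 difference of TPM + 1 (horizontal axis) with its 95% interval for each gene (vertical axis), on the left cKO minus control within each line, on the right exon 2-3 controls minus exon 2 controls. Filled points passed an adjusted p of 0.05. On the left no point is filled, and on the right Slc2a4, Hk1 and Pdk2 are.

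Slc2a4 encodes GLUT4, the transporter that insulin brings to the surface of muscle and fat cells. Its exon 2-3 controls measured 19.3, 17.0, 16.8 and 19.0 TPM and the cKO libraries 17.8, 19.6, 17.8 and 19.2 TPM. The 2 groups overlapped, and only 1 cKO library stood above the highest control. This gave a log2 difference of 0.04 (SE 0.07, limma adjusted p = 0.765). Exon 2 controls measured 21.3, 21.4, 23.9 and 21.9 TPM and cKO libraries 19.8, 20.8, 23.1 and 18.8 TPM. Here 3 of 4 cKO libraries lay under the lowest control. The log2 difference was -0.10 (SE 0.07, limma adjusted p = 0.999).

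Hk1 encodes hexokinase 1, which phosphorylates glucose and can dock on the mitochondrial outer membrane. Its exon 2-3 controls measured 231, 218, 190 and 224 TPM, and its cKO libraries 195, 194, 207 and 211 TPM. Every cKO library was below the control mean but none was below the lowest control. The log2 difference of Hk1 was -0.09 (SE 0.07, 95% interval -0.24 to 0.05, limma adjusted p = 0.456). Exon 2 controls measured 288, 306, 264 and 268 TPM and cKO libraries 266, 273, 272 and 231 TPM. All 4 cKO libraries were again below the control mean, and 1, replicate 4, was below the lowest control. For the exon 2 line the difference was -0.11 (SE 0.07, 95% interval -0.27 to 0.04, limma adjusted p = 0.999).

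Pfkl and Pfkfb2 act at the phosphofructokinase step. Pfkl, the liver-type subunit of the enzyme itself, measured 186, 180, 154 and 190 TPM in exon 2-3 controls and 156, 156, 167 and 178 TPM in cKO libraries. No cKO library was below the lowest control. Its log2 difference was -0.11 (SE 0.07, limma adjusted p = 0.432). Its exon 2 libraries measured 190, 177, 194 and 170 TPM in controls and 175, 185, 185 and 153 TPM in cKO libraries, with a log2 difference of -0.07 (SE 0.07, limma adjusted p = 0.999). Over all 16 libraries Pfkl had the narrowest range of the 7, its highest library exceeding its lowest by a factor of 1.27.

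Pfkfb2 encodes the heart form of the enzyme that makes and breaks down the sugar bisphosphate activating phosphofructokinase. It was the member with the highest estimate in both lines. Exon 2-3 controls measured 7.67, 8.77, 7.10 and 8.68 TPM and cKO libraries 9.46, 8.21, 9.69 and 9.10 TPM. In this line 3 of 4 cKO libraries stood above the highest control. Its log2 difference was 0.16 (SE 0.09, 95% interval -0.04 to 0.36, limma adjusted p = 0.337). Exon 2 controls ranged from 6.33 to 9.92 TPM and enclosed the cKO libraries at 6.73, 8.07, 9.54 and 7.75 TPM. The log2 difference there was 0.02 (SE 0.13, limma adjusted p = 0.999).

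Aldoc encodes aldolase C, the aldolase best known from brain, which splits fructose bisphosphate into trioses. Exon 2-3 controls measured 7.68, 7.06, 6.75 and 8.19 TPM and cKO libraries 6.47, 4.90, 7.16 and 6.70 TPM. Exon 2 controls measured 8.41, 8.07, 7.45 and 6.73 TPM and cKO libraries 6.83, 6.64, 6.36 and 5.84 TPM. In each line 3 of 4 cKO libraries lay under the lowest control and all 4 under the control mean. For Aldoc the log2 difference was -0.21 (SE 0.11, 95% interval -0.46 to 0.04) in the exon 2-3 line, with a limma adjusted p of 0.323, and -0.11 without cKO replicate 2. It was -0.22 (SE 0.09, 95% interval -0.42 to -0.02) in the exon 2 line, where the unadjusted limma p was 0.0341 and the adjusted p 0.999.

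Eno3 encodes beta enolase, the form of striated muscle. Exon 2-3 controls measured 268, 250, 236 and 267 TPM and cKO libraries 248, 225, 238 and 243 TPM. All 4 cKO libraries were below the control mean and 1 was below the lowest control. For Eno3 the log2 difference was -0.10 (SE 0.06, limma adjusted p = 0.367). Exon 2 controls measured 255, 230, 234 and 215 TPM and cKO libraries 207, 237, 247 and 225 TPM, evenly split around the control mean. There the difference was -0.03 (SE 0.07, limma adjusted p = 0.999).

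Pdk2 encodes pyruvate dehydrogenase kinase 2, which phosphorylates pyruvate dehydrogenase and so holds pyruvate back from oxidation. It had the lowest estimate of the 7 in the exon 2-3 line. Controls measured 22.5, 31.3, 25.5 and 32.2 TPM and cKO libraries 21.0, 23.4, 19.1 and 24.1 TPM. Only 2 of the 4 cKO libraries were under the lowest control, replicate 1. For Pdk2 this gave a log2 difference of -0.33 (SE 0.12, 95% interval -0.59 to -0.06), with an unadjusted limma p of 0.0212 and an adjusted p of 0.145. Exon 2 controls measured 40.8, 38.7, 49.3 and 44.2 TPM and cKO libraries 41.0, 39.5, 41.6 and 36.5 TPM. The difference was -0.12 (SE 0.08, 95% interval -0.29 to 0.06, limma adjusted p = 0.999), and -0.05 without control replicate 3.

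The difference between the lines' cKO effects was tested directly with an interaction term over all 16 libraries. For this term 0 of 7 members passed, where 2.37% of all genes did, and 0 members had an unadjusted limma p under 0.05 against 15% of all genes. Pdk2 had the largest estimate, -0.21 (SE 0.15, 95% interval -0.53 to 0.11, limma adjusted p = 0.602). For Slc2a4, whose estimates had opposite signs in the 2 lines, it was 0.14 (SE 0.10, 95% interval -0.07 to 0.36, limma adjusted p = 0.584). For Aldoc it was 0.01 (SE 0.14, 95% interval -0.30 to 0.31), an interval that still allows a difference as large as either effect.

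The mean of both lines' effects, an analysis added after the data were seen, gave the smallest p-values for Aldoc and Pdk2. Both had a mean log2 difference of -0.22, with an SE of 0.07 for Aldoc and 0.08 for Pdk2. The limma adjusted p was 0.138 for Aldoc and 0.153 for Pdk2, so 0 of 7 members passed, where 1.91% of all genes did.

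Larger differences lay between the 2 control groups, which differ in line and batch while neither is labelled as deleted for Atf4. Here 3 of 7 members passed, all lower in exon 2-3 controls, where 52.6% of all genes passed in either direction and 38.1% were called lower. The members' share called was thus near the background, and their median difference was -0.04 against -0.14 over all genes. Pdk2 had the largest difference, with 22.5 to 32.2 TPM in exon 2-3 controls and 38.7 to 49.3 TPM in exon 2 controls and a log2 difference of -0.62 (SE 0.11, limma adjusted p = 0.000174). Hk1, at 190 to 231 TPM against 264 to 306 TPM, differed by -0.38 on the log2 scale (SE 0.07, limma adjusted p = 0.000301). Slc2a4, at 16.8 to 19.3 TPM against 21.3 to 23.9 TPM, differed by -0.28 (SE 0.07, limma adjusted p = 0.00336). In each of these genes every exon 2-3 control was under every exon 2 control, which held for 32.6% of all genes.

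The other 4 members did not pass between the control groups. Eno3 had an estimate of 0.13 (SE 0.06, 95% interval -0.01 to 0.26, limma adjusted p = 0.110). Pfkl, Pfkfb2 and Aldoc had estimates of -0.04, 0.03 and -0.04, with limma adjusted p of 0.650, 0.830 and 0.759. Their 95% intervals ran from -0.21 to 0.12 for Pfkl, from -0.21 to 0.28 for Pfkfb2 and from -0.26 to 0.18 for Aldoc.

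Levels of cell type marker genes also differed between the groups, where more cells of a type and more RNA per cell cannot be told apart. Summed TPM of the 6 cardiomyocyte markers held (of 15 listed) ran from 16567 to 18007 in exon 2-3 controls and from 11952 to 14142 in exon 2 controls, with 5 of 6 called higher. The 5 epicardial and fibroblast markers (of 11) summed to 256 to 291 TPM against 385 to 548 TPM, with 4 called lower and 1 higher. The 5 endothelial markers (of 13) summed to 144 to 183 TPM against 171 to 186 TPM, with 4 called lower and 1 higher. In this control comparison 52.6% of all genes were called in either direction and 38.1% were called lower. Within the exon 2-3 line the epicardial sum was 395 to 432 TPM in cKO libraries, with 4 of 5 markers called higher. The endothelial sum was 178 to 205 TPM in them, with 5 of 5 estimates above 0 and 1 called higher. Among the cardiomyocyte markers 1 of 6, Hand1, was called lower. In that line 6.72% of all genes were called in either direction. Erythroid markers (4 of 11 held) summed to 1512 to 11293 TPM in exon 2-3 cKO libraries and 2995 to 4554 TPM in their controls, the highest being cKO replicate 4. Without that library the exon 2-3 difference of Pdk2 was -0.37 and again 0 members passed. No marker was at 0 in all libraries of a group. Gfap, the 1 neural marker held, was at most 0.116 TPM, and the cardiomyocyte markers held were abundant, although the extraction text in the labels names cortical neurons. The part of cell makeup in the members' values was not tested.

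Scaling changed which members were called. Median centring sets each library's median log2 value to a common level, and moved the median difference of all genes between the control groups from -0.14 to 0.04. Under it 3 of 7 members were called lower in exon 2-3 cKO libraries, where 7.67% of all genes were lower and 13.1% called in either direction: Pfkl at -0.16 (limma adjusted p = 0.0415), Hk1 at -0.14 (limma adjusted p = 0.0473) and Pdk2 at -0.37 (limma adjusted p = 0.0475). Of the genes called in that line 41.4% were then higher, against 61.9% as deposited, and 50.5% after quantile normalisation, which gives all libraries the same distribution. Quantile normalisation called 0 members there, with Pdk2 at an adjusted p of 0.0531. Between the control groups, Hk1 and Pdk2 stayed lower under all 4 scalings. Median centring called 4 of 7 members there, where 48.2% of all genes were called. Slc2a4 lost its call under it (-0.10, limma adjusted p = 0.128), and Eno3 (0.31, adjusted p = 0.000178) and Pfkl (0.14, adjusted p = 0.0408) were called higher. The share of called genes that were higher there was 27.5% as deposited, 39.9% after quantile normalisation and 57.7% after median centring.

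**Figure D3:**
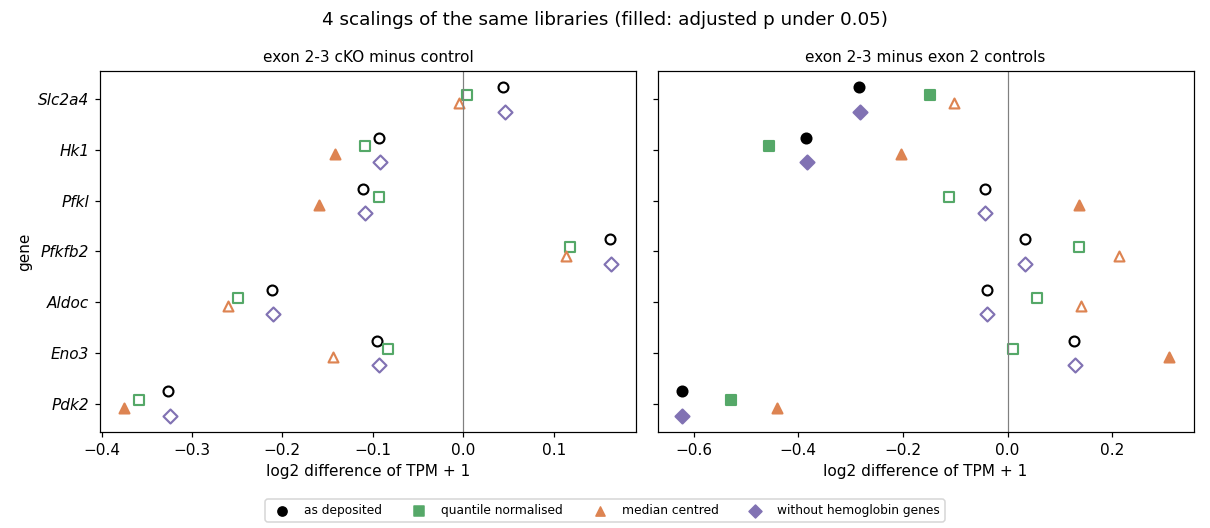
Log2 difference of each gene (vertical axis) under 4 scalings of the same libraries, for exon 2-3 cKO minus control (left) and exon 2-3 minus exon 2 controls (right). Filled symbols passed an adjusted p of 0.05. Hk1 and Pdk2 are filled at all 4 scalings on the right, and on the left only median centring fills any member (Hk1, Pfkl and Pdk2).

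Other genes of glucose use were taken from 5 lists of 181 genes, of which 32 were held and 30 tested. Within the exon 2-3 line 1 of the 30 was called higher and 0 lower, 3.33% against 6.72% of all genes. Median centring called 2 higher and 6 lower there (26.7% of the 30 against 13.1% of all genes). Quantile normalisation called 3 higher and 2 lower (16.7% of the 30), where it called 311 of all 2620 genes. The exon 2 line had 0 called, against 0.0763% of all genes. For the interaction 1 was called higher, 3.33% against 2.37% of all genes. Between the control groups 3 were higher and 14 lower in exon 2-3 controls. That is 56.7% of the 30, near the 52.6% of all genes called in that comparison.

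Of 64 listed genes of glycolysis and pyruvate handling 7 were held and 5 tested, so most of this list was not examined. Among the 5 tested, 0 were called in either line, with medians of 0.00 and -0.04. Pgam2, the muscle phosphoglycerate mutase that supplies enolase, was more abundant than any of the 7 members, at 491 ± 31.4 TPM in exon 2-3 controls and 556 ± 19.2 TPM in cKO libraries (SD, n = 4). Its log2 difference was 0.18 (SE 0.06, limma adjusted p = 0.0897). Between the control groups, Mpc2, a subunit of the mitochondrial pyruvate carrier, was higher in exon 2-3 controls, at 123 ± 4.65 against 92.4 ± 3.54 TPM (limma adjusted p = 8.41e-06). Slc16a7, a monocarboxylate transporter, was lower, at 1.80 ± 1.11 against 4.63 ± 0.810 TPM (limma adjusted p = 0.00126).

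Among 6 genes of insulin signalling and GLUT4 traffic, Irs1 was called higher in the exon 2-3 cKO. Irs1, an adaptor that passes the insulin receptor's signal on, rose from 14.9 to 19.8 TPM in controls to 20.6 to 26.8 TPM in cKO libraries, with no overlap. The log2 difference was 0.54 (SE 0.11, limma adjusted p = 0.0178). The call was lost when control replicate 1 (adjusted p = 0.0503), cKO replicate 2 (adjusted p = 0.0533) or cKO replicate 3 (adjusted p = 0.0593) was left out, and without the filter on low values (adjusted p = 0.0692). Within the exon 2 line the Irs1 difference was 0.08 (SE 0.09, limma adjusted p = 0.999), and the interaction of 0.46 did not pass (limma adjusted p = 0.106). Vamp2, a vesicle fusion protein of GLUT4 storage vesicles, differed between the lines with an interaction of 0.39 (SE 0.09, limma adjusted p = 0.0397), averaging 52.2 and 61.6 TPM in exon 2-3 controls and cKO and 73.4 and 66.0 TPM in exon 2 controls and cKO. That call was lost in 12 of 16 fits that left out 1 library. It was also lost with the replicate block, which joined same-numbered libraries of both lines (adjusted p = 0.0659), without the intensity trend (adjusted p = 0.0611) and without the filter on low values (adjusted p = 0.0812). The Vamp2 difference passed in neither line alone. Between the control groups all 6 genes of this list were lower in exon 2-3 controls, with a median of -0.40, where 38.1% of all genes were called lower and the median of all genes was -0.14. All 6 stayed called lower under median centring, with a median of -0.22. Under that scaling 48.2% of all genes were called in either direction, 57.7% of these higher, and the median of all genes was 0.04. Slc2a4, which encodes the cargo of this pathway, kept its direction there but lost its call.

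Among 5 tested genes of the glycogen, pentose phosphate and hexosamine branches, 0 were called in either line, and 1, Gfpt2, was lower in exon 2-3 controls. Among 6 tricarboxylic acid cycle genes 0 were called in either line. Between the control groups Mdh1, a malate dehydrogenase at 944 ± 23.5 against 685 ± 32.1 TPM, and Fh1, fumarase, were higher in exon 2-3 controls, and Ogdh and Cs were lower. Among 8 regulators of glucose genes 0 were called in either line and 4 were lower in exon 2-3 controls, Esrrg, Stat5b, Thra and Nr1d1. Under median centring the genes called lower in the exon 2-3 cKO were 3 of the tricarboxylic acid cycle, 1 of the branches, 1 of the insulin list and 1 regulator, where 7.67% of all genes were lower. Quantile normalisation called 1 gene of the tricarboxylic acid cycle and 1 regulator lower, where it called 311 of all 2620 genes in either direction. Hand1, Pgam2, Mpc2, Slc16a7 and the genes named in this paragraph were chosen after their values were seen.

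**Figure D4:**
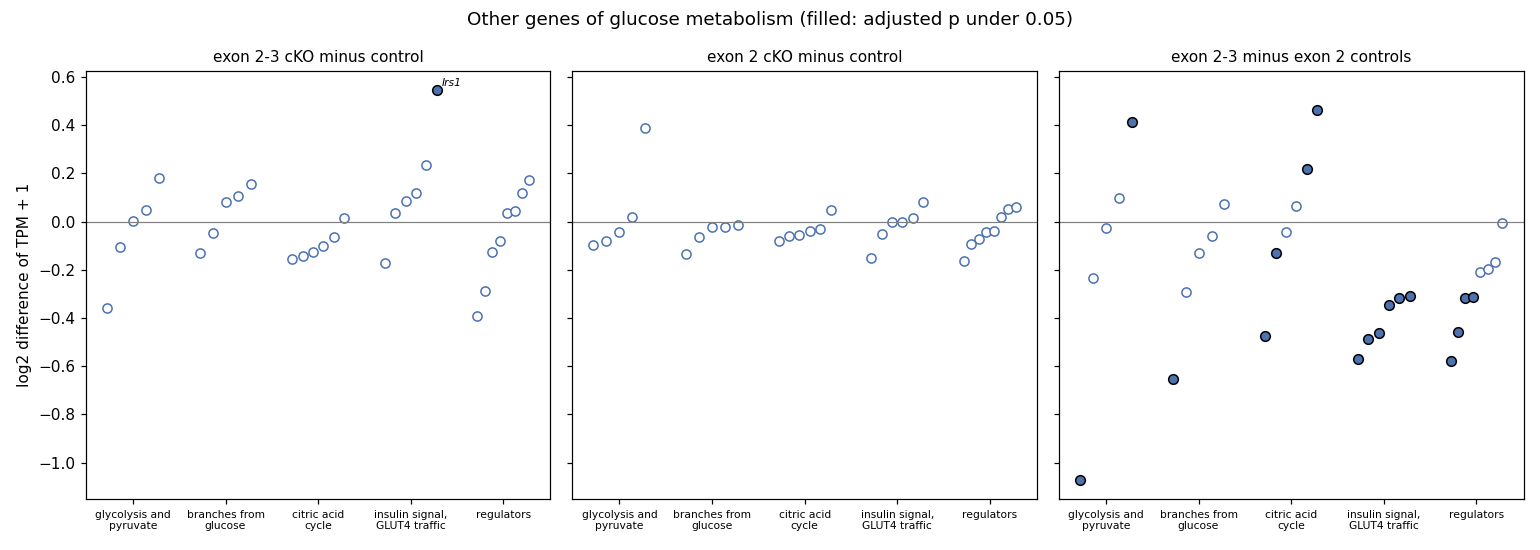
Log2 difference of TPM + 1 (vertical axis) for the 30 tested genes of 5 lists (horizontal axis), 1 point per gene, in the 3 panels exon 2-3 cKO minus control, exon 2 cKO minus control and exon 2-3 minus exon 2 controls. Filled points passed an adjusted p of 0.05. Irs1 is the 1 filled point in the first panel, the second has none, and the third has 17, of which 14 lie below 0.

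Across the 16 libraries the levels of the 3 members called between the control groups correlated, as a description over libraries that share line and batch. Pearson's r of log2(TPM + 1) was 0.84 for Hk1 with Pdk2, 0.79 for Hk1 with Slc2a4 and 0.75 for Pdk2 with Slc2a4. After each group's mean was subtracted these were -0.05, 0.38 and 0.37. Over all 21 pairs of members the r of these deviations ran from -0.18 to 0.76 with a median of 0.36, the highest being Hk1 with Pfkl. Of all tested genes, the one most like each member over 16 libraries was Ywhae for Hk1 (r = 0.97), Acsf2 for Pdk2 (r = 0.97) and Ikzf4 for Slc2a4 (r = 0.95). It was Eno3 with Tomm40l (r = 0.88), Pfkl with Med16 (r = 0.85), Aldoc with Nt5c3b (r = 0.84) and Pfkfb2 with Snord37 (r = 0.78). The next most alike were Pgap3 for Hk1 (r = 0.96), Cnst for Pdk2 (r = 0.95), Olfml2b for Slc2a4 (r = 0.92) and Slc35b1 for Eno3 (r = 0.87). They were Gm12070 for Pfkl (r = 0.84), Stard3 for Aldoc (r = 0.83) and Tmed4 for Pfkfb2 (r = 0.75).

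With the group means removed, the genes that varied most like each member were mostly others. They were Hmga2 (r = 0.94) and again Ywhae (r = 0.93) for Hk1, and Cnst again (r = 0.88) and Fgf11 (r = 0.87) for Pdk2. For Eno3 they were Scpep1 and Ppp2ca (both r = 0.94), for Pfkl Ube2z and Rcsd1 (both r = 0.92) and for Slc2a4 Mars2 (r = 0.90) and P4ha1 (r = 0.87). For Aldoc they were Plekhj1 (r = 0.88) and Cdc6 (r = 0.87), and for Pfkfb2 Trak2 and Ppfia4 (both r = 0.81). The best of all the genes tested is high by selection, and values in 1 library share its scaling.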

How the data were processed

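RNA-seq was done on ventricles of single embryos, 16 libraries in 4 groups taken from the sample titles. The authors deposited 1 table of TPM values per gene. Per the submitters' processing notes, FastQC, Trim Galore 0.6.7, HISAT2 2.2.1, StringTie 2.2.1, featureCounts and DESeq2 were used with GRCm38, with no step assigned to each. The table was held in part: chromosomes 1, 10 and part of 11, 5921 rows after 1 incomplete line was left out, summing to 15.2 to 17.1% of each library's TPM, with 4505 to 4873 genes above 0. TPM keeps no read depth, so no counting interval is given. The labels describe library preparation as both stranded mRNA and rRNA depletion.

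Tests used log2(TPM + 1), a scale that shrinks changes of low genes, and the 2620 genes averaging 1 TPM or more. The 8 libraries of a line had a fit of their own in limma 3.58.1 (R 4.3.3, eBayes with trend); the interaction and control comparisons used a group means model over 16 libraries. P-values are two-sided, adjusted by Benjamini-Hochberg over all genes tested, with a threshold of 0.05. The fits were tested on simulated data with independent noise for each gene and library. Shifts of a whole library, correlation between genes and pairing were not simulated. Members and lists were chosen with earlier results of these data known. The genes named are the 7 members, listed genes called in either line or the interaction, and the 2 genes most like each member; others were chosen after their values were seen. Positions and promoter windows are from RefSeq (GRCm38.p6). Alternatives covered the pseudocount, filter, scaling, trend, replicate block, a joint fit and leaving out each library.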

Additional observations from a re-analysis of the deposited data

Results flagged for a closer look

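Hk1 in exon 2 cKO replicate 4 lay apart from its group, at 231 TPM against 266 TPM in the nearest of the other libraries, a gap of 0.835 of the group's range that is past the 95% limit of Dixon's test for 4 samples. Over the 28 groups of 4 examined for the 7 genes this was the 1 such case, and chance gives about 1 in 20. Without that library the Hk1 difference in the exon 2 line was -0.06 in place of -0.11.

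Vamp2 differed between the lines by an interaction term of 0.39 (limma adjusted p = 0.0397). In the 12 of 16 fits with 1 library left out that lost this call, the adjusted p reached 0.0917.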

How the results depend on the processing

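Of 574 estimates for the 7 genes under alternative settings, 539 kept their direction and side of the threshold and 29 reversed. With the direction kept, 5 became called and 1 lost its call. Pfkl between controls under median centring both reversed and became called, and is counted as reversed. Many of the estimates could not reverse. The filters, trend, replicate block and joint fit left every member's estimate as it was. Leaving out a cKO library left the control differences as they were. Such fits could change only the p-value. Median centring gave 3 members called in the exon 2-3 line (0 as deposited), and turned Pfkl (0.14) and Aldoc (0.14) between controls, Slc2a4 (-0.0042) in the exon 2-3 cKO, and the interactions of Aldoc (-0.043) and Hk1 (-0.034). Quantile normalisation turned Aldoc between controls (0.056) and the interactions of Aldoc (-0.029) and Hk1 (-0.019). Leaving out each library gave -0.047 to 0.11 for the Aldoc interaction, -0.041 to 0.054 for that of Hk1, -0.069 to 0.017 for Eno3 and -0.066 to 0.13 for Pfkfb2 in the exon 2 line. Between controls it gave -0.094 to 0.00072 for Aldoc, -0.056 to 0.14 for Pfkfb2 and -0.078 to 0.023 for Pfkl. The control differences of Hk1 (-0.42 to -0.32), Pdk2 (-0.69 to -0.53) and Slc2a4 (-0.32 to -0.25) stayed called in all such fits, and Eno3 joined them without exon 2 control replicate 1 (0.17, adjusted p = 0.0438).

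Of all genes, 176 were called in the exon 2-3 line, 343 under median centring, 311 under quantile normalisation, 95 without the filter, and 70 (without cKO replicate 3) to 190 when 1 library was left out. In the exon 2 line 2 were called, 4 in a joint fit, and 2 to 4 (without control replicate 3) with 1 library left out. For the interaction 62 were called (67.7% higher), 127 (52.0%) under median centring, 133 (53.4%) under quantile normalisation, and 36 (without exon 2 cKO replicate 2) to 84 with 1 library left out. The cause of these shifts was not tested. The replicate numbers were not taken to pair the samples, since not every pair correlated above 0.1, although the exon 2 line leaves a pairing possible: same-numbered samples correlated by 0.064 to 0.20 in the exon 2 line, where 7 of 8 matched their own number best, and by -0.029 to 0.21 in the exon 2-3 line, where 2 of 8 did. With a replicate block 149, 2, 36 and 1305 genes were called in the exon 2-3, exon 2, interaction and control comparisons, and no member's call changed. In the interaction and control comparisons the block joined same-numbered libraries of both lines, which are separate embryos. Those counts therefore do not test a pairing within a line.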
